A study of Mus musculus with 6 samples.

Results

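The SLC25 family holds the carriers that move metabolites, nucleotides, cofactors and metals across the inner mitochondrial membrane, and its transcripts were compared in the spleen of female mice of the NOD strain, a model of spontaneous type 1 diabetes, after treatment with the peptide MOTS-c or with vehicle. The members were every gene whose symbol in the authors' deposited expression table is Slc25a followed by a number. They were 42 genes with 78 probes, among 16361 named genes and 31692 probes in that table. Every one of the 31692 probes was well above background on all 6 arrays, so the table is already a selection of detected probes. The array design carried 19 further family probes outside the table, and 5 family genes (Slc25a15, Slc25a31, Slc25a41, Slc25a48 and Slc25a54) had no probe in it and are not members.

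From 6 weeks of age the mice received MOTS-c, whose short coding frame lies in the mitochondrial genome, by intraperitoneal injection at 0.5 mg/kg/day, or a scrambled version of the peptide as vehicle. The labels name no engineered allele in either group, and the spleen was removed from 18-week-old mice fasted for 16 to 18 h. There were 3 one-colour arrays a group, called vehicle 1, 2 and 3 and MOTS-c 1, 2 and 3, and 61.8% to 64.0% of the spots of an array were well above background with 0 spots saturated. Since nothing in the labels states whether a mouse gave only 1 sample, each p-value reflects the spread among these samples alone, which may be technical, and with 3 arrays a group the number of arrays limits the precision.

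SLC25 carriers are built from repeats of a pair of membrane-spanning helices and exchange or import small substrates. Nuclear genes encode them, and the proteins are imported through the outer membrane and inserted into the inner one. Some serve almost every cell, such as the carriers of phosphate and of ADP and ATP, while others serve special tasks. In the mouse spleen, which still makes red cells in adult life, carriers that feed heme synthesis are known from red cell precursors. Arrays measure transcripts and say nothing of transport.

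The arrays were not alike in their cell type markers, and vehicle 1 stood apart. The mean log2 deviation of 16 T cell markers from their 6-array means was -1.47 in vehicle 1, -0.12 in vehicle 2 and 0.0040 in vehicle 3, against 0.57, 0.51 and 0.51 in MOTS-c 1, 2 and 3. Vehicle 3 stood apart in 13 markers of pancreatic acinar cells, whose mean deviation was 4.46 there, 1.31 in vehicle 1, -1.61 in vehicle 2 and -1.80, -2.52 and 0.17 in MOTS-c 1, 2 and 3. The arrays lay on 2 slides: vehicle 1 and 2 on slide 1, and vehicle 3 with all 3 MOTS-c arrays on slide 2. Values without vehicle 1 or within slide 2 are given beside results that they move and for the leading members. In the comparison within slide 2 vehicle 3 stands alone for vehicle and is assumed to vary as the MOTS-c arrays do.

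Across the family, carriers of iron, glycine and glutathione, the NAD carrier Slc25a51 and the keto acid carrier Slc25a21 had lower means with MOTS-c, and the carriers related to uncoupling proteins, the ADP/ATP carrier Slc25a4 and the glutamate carrier Slc25a22 had higher ones. With each gene read by its brightest probe, 24 of the 42 genes had a lower mean with MOTS-c and 18 a higher one. The differences, MOTS-c minus vehicle on the log2 scale of the deposited values, ran from -2.10 to 0.88 with a median of -0.043, beside a median of 0.062 over all 16361 named genes. Scaled instead to the 75th percentile of each array, the median of the family was -0.14 and that of all named genes 0.031.

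No probe passed limma's test with Benjamini-Hochberg adjustment over the whole table at an adjusted p under 0.05 (0.0% of 31692 probes), and 0 of the 42 member genes did. Before adjustment, 9 member genes had p under 0.05 with a lower mean, where 13.0% of all named genes did, and 8 with a higher mean, where 13.3% did. Every MOTS-c value lay below every vehicle value for 11 member genes, against 16.3% of all named genes, and above for 10, against 19.4%. Of all probes, 4329 had p under 0.05 before adjustment with a lower mean and 3869 with a higher one. At an adjusted p under 0.1, 4 member genes passed, all lower with MOTS-c (Slc25a21, Slc25a39, Slc25a37 and Slc25a51), beside 1064 named genes in all (6.5%). With an intensity trend in limma's prior, 721 probes passed at 0.05, and among the member genes the same 4 did, beside 2.8% of all named genes. Without vehicle 2 the count was 772 probes, with Slc25a21, Slc25a38 and Slc25a51 past the threshold, beside 2.6% of all named genes. Without vehicle 1 it was 0, and before adjustment at 0.05 8 member genes were lower, against 9.97% of all named genes, and 6 higher, against 9.0%. Of the member genes, 8 had in the authors' deposited table a p-value under 0.05, 4 of them lower, where 8.38% of all named genes were, and 4 higher, where 5.7% were. The smallest adjusted p-value of a member in the authors' deposited table was 0.370.

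**Figure D1:**
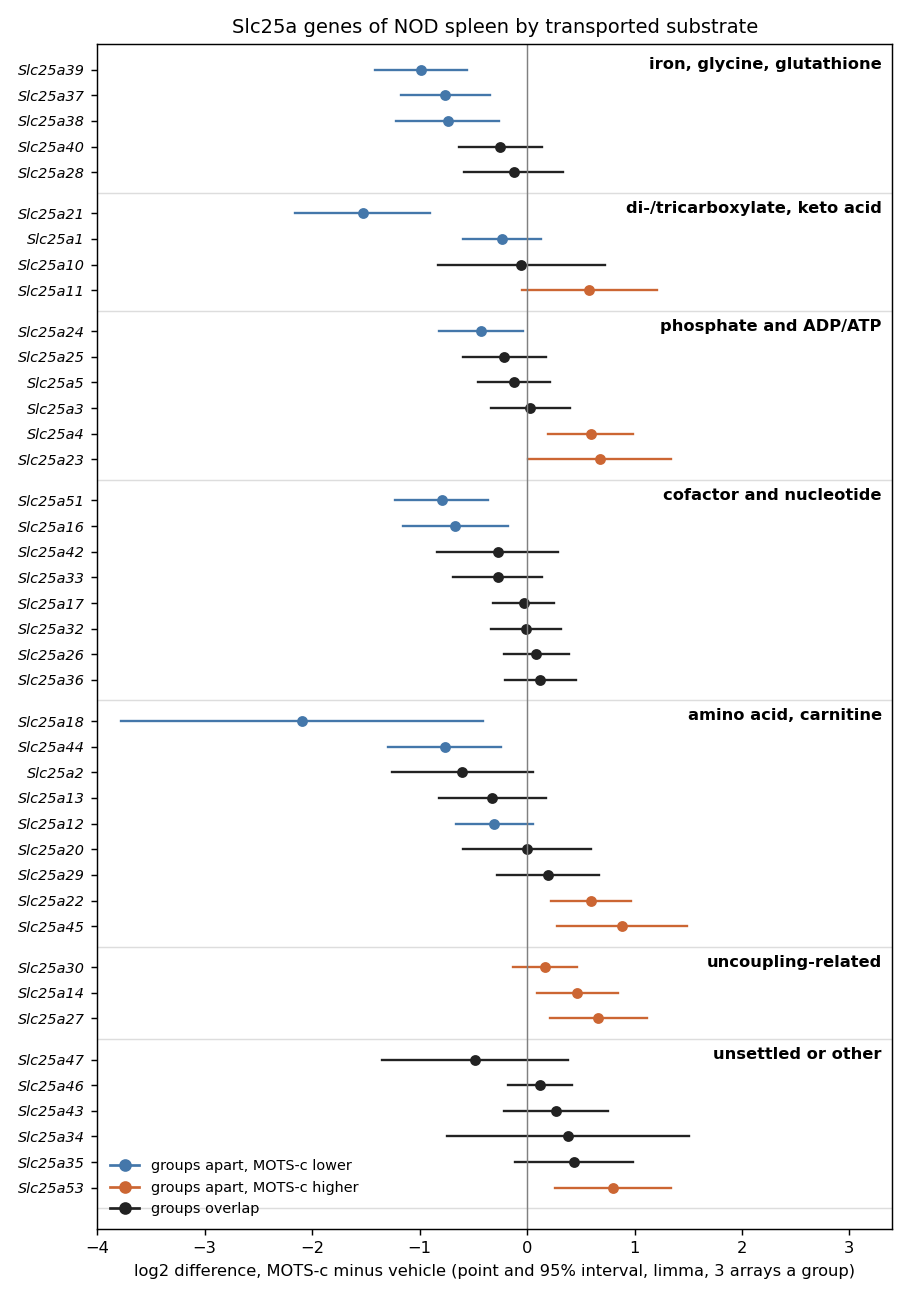
Log2 difference, MOTS-c minus vehicle, of the Slc25a genes by their brightest probe, grouped by transported substrate, with its 95% interval from limma. All 5 iron, glycine and glutathione carriers lie below 0 and all 3 uncoupling-related carriers above it, while the other groups hold both signs.

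The 5 carriers of iron, glycine and glutathione all had lower means with MOTS-c, and in 3 of them the groups did not overlap. Every MOTS-c value lay below every vehicle value for 16.3% of all named genes. The median difference of the 5 was -0.74. An unadjusted p under 0.05 was found in 3 of the 5, where 13.0% of all named genes had it with a lower mean. These carriers serve the making of heme and iron-sulphur clusters in the matrix. With the 75th percentile scaling the median was -0.80.

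Slc25a37 encodes mitoferrin-1, which brings iron into the mitochondria of developing red cells. Its brightest probe (mm9, chr14:69860020-69860079) read 17.45, 16.92 and 17.14 on the log2 scale in vehicle 1, 2 and 3, and 16.57, 16.30 and 16.36 in MOTS-c 1, 2 and 3. The groups did not overlap (probe positions here and below are those of mm9). The difference was -0.76 ± 0.18 (SE), 1.70-fold lower, with an adjusted p of 0.0870 in limma's fit. It was -0.62 without vehicle 1 and -0.73 within slide 2.

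Slc25a37 had 2 other probes in the table, which lie farther toward the start of the gene on the minus strand. They differed by -1.61 and -1.33, each with groups that did not overlap, so the 3 probes shared the direction while the size varied. In the probe with -1.61, vehicle 1 read 12.01 and the other vehicle arrays 10.59 and 10.45. The first 30 of the 60 bases of each probe are shown in the order of the values above, since the choice of probe sets the size printed for the gene.
Slc25a37 brightest probe: taagagtggcctagtgttgctttccgaatg
Slc25a37 chr14:69863195-69863254: ctatgagtttctgcaggagcaagtcaaccc
Slc25a37 chr14:69902797-69902856: acatgacagcgggagcgatggccgggattc

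Slc25a39, a carrier needed for glutathione import into mitochondria, had the smallest p of the 5. Its brightest probe (chr11:102264539-102264598) read 15.34, 14.91 and 14.89 in the vehicle arrays and 14.27, 13.97 and 13.93 in the MOTS-c arrays. Each MOTS-c array lay below each vehicle array. The difference was -0.99 ± 0.18 (SE), 1.98-fold lower, with an adjusted p of 0.0820. It was -1.23 with the 75th percentile scaling, -0.84 without vehicle 1 and -0.83 within slide 2. Its second probe differed by -1.33, from 10.94, 10.43 and 10.38 to 9.58, 9.18 and 9.02.

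Slc25a38 imports glycine for the first step of heme synthesis. It was read by 1 probe (chr9:120032967-120033026), at 12.23, 11.57 and 12.20 in the vehicle arrays and 11.15, 11.35 and 11.28 in the MOTS-c arrays. Vehicle 2 lay closest to the MOTS-c arrays, and the groups did not overlap. The difference was -0.74 ± 0.20 (SE), 1.67-fold lower, with an adjusted p of 0.107. It was -0.62 without vehicle 1 and -0.94 within slide 2.

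The remaining carriers of the group are paralogs of those above. Slc25a28 encodes mitoferrin-2, the iron carrier of cells outside the red lineage. It read 11.42, 11.27 and 10.76 in the vehicle arrays and 10.99, 10.94 and 11.15 in the MOTS-c arrays, and the groups overlapped. Its difference of -0.12 ± 0.20 (SE) was within the spread of the arrays, and it was 0.27 within slide 2 and 0.013 without vehicle 1. Slc25a40, the paralog of Slc25a39, differed by -0.25 ± 0.16 (SE) with overlapping groups and an adjusted p of 0.356, and by -0.011 within slide 2. In the group, then, Slc25a28 changed sign without vehicle 1 and within slide 2. The 3 carriers whose groups did not overlap could not change sign there, so only the sizes of their differences can be compared.

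**Figure D2:**
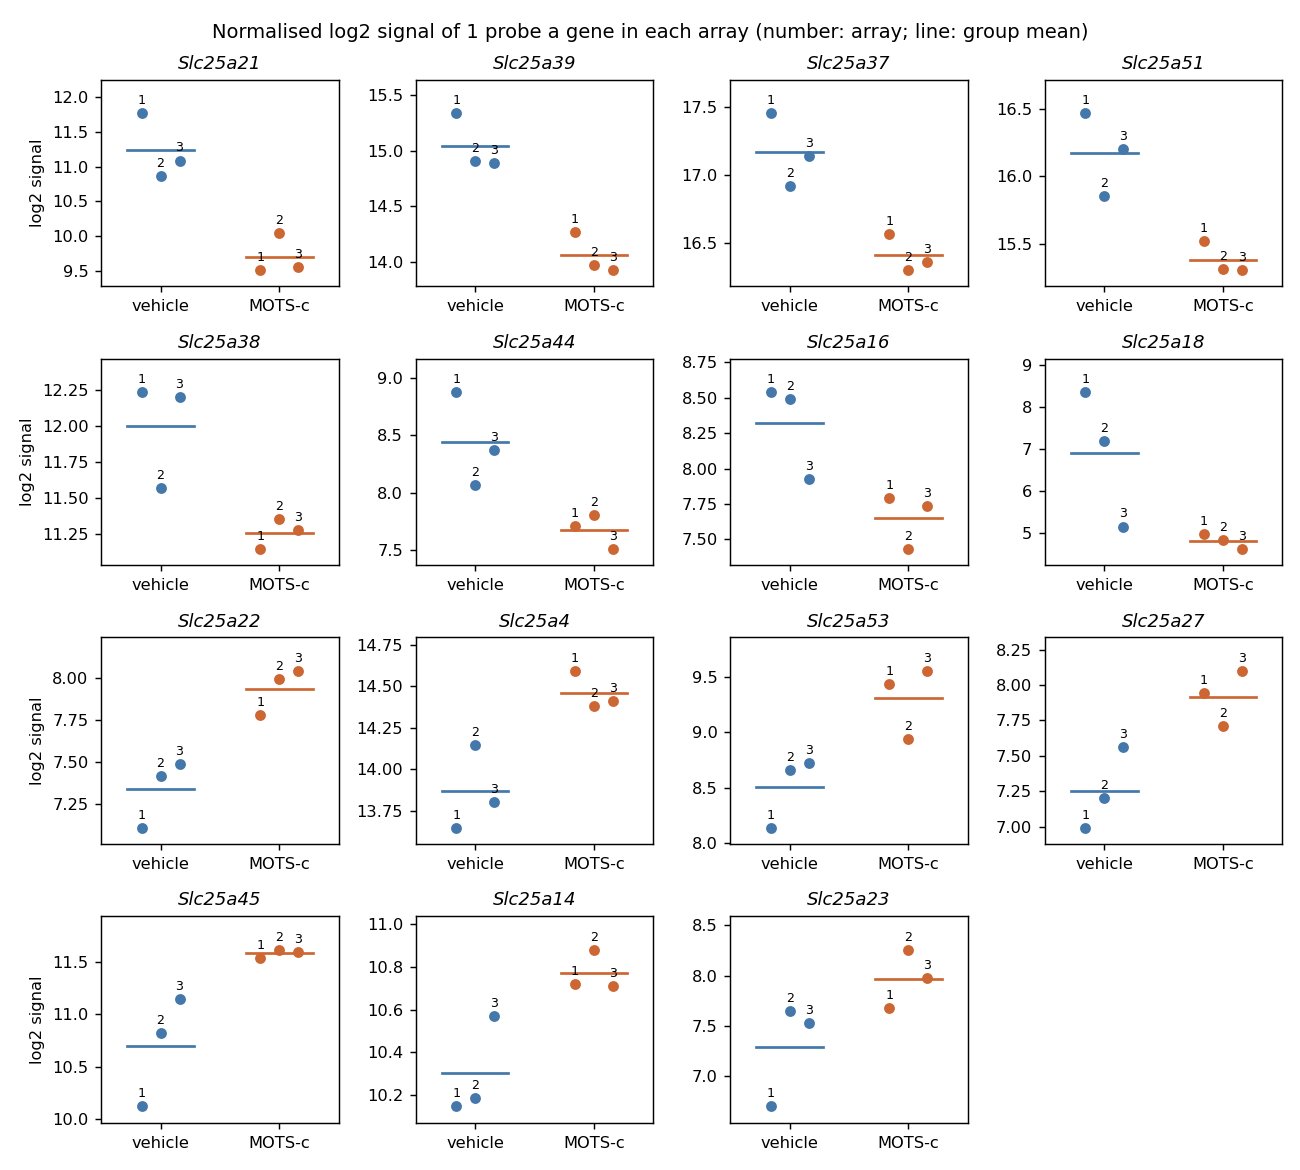
Normalised log2 signal in each of the 6 arrays, for Slc25a genes with the smallest limma p among those lower and among those higher with MOTS-c; points carry the array number and lines are group means. In Slc25a37, Slc25a38, Slc25a39, Slc25a51 and Slc25a21 the 3 MOTS-c values lie together below the vehicle values, while in Slc25a18 the vehicle values run from 5.14 to 8.35.

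Markers of red cell precursors moved with this group. Of 26 listed markers 24 were in the table. In 19 of these every MOTS-c value lay below every vehicle value, beside 16.3% of all named genes. Hbb-bt is among 23 counted as lower, but it read 18.05 on every array. The deposited values are quantile normalised, which gives a probe of the same rank the same value on each array. Hba-a1 and Hba-a2 differed by only -0.039 and 0.052 on that scale, with overlapping groups. With the 75th percentile scaling, Hbb-bt, Hba-a1 and Hba-a2 differed by -0.19, -0.23 and -0.15. The median difference of the 24 markers was -1.03. The summed linear signal of the list ran from 1810690 to 2080220 in the vehicle arrays and from 1503450 to 1600350 in the MOTS-c arrays. It includes Hba-a1, Hbb-bt and Hba-a2, the brightest of the list, whose normalised values hardly varied between arrays. The mean deviation of the red cell list was 0.65, 0.11 and 0.52 in vehicle 1, 2 and 3, and -0.44, -0.32 and -0.53 in MOTS-c 1, 2 and 3. That of the 5 carriers was 0.51, 0.19 and 0.16, and then -0.27, -0.33 and -0.26. All 16 markers of dividing cells were lower too, with a median of -0.97 and summed signals of 296387 to 423380 in vehicle and 170553 to 209787 in MOTS-c arrays. The part of either list in the lower carrier values was not tested. In a bulk spleen sample, fewer cells of a type and less RNA per cell cannot be told apart.

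Genes of heme synthesis and iron-sulphur assembly in mitochondria, the processes these carriers supply, were lower in 12 of 15, with a median of -0.86. Alas2 is on both this list and that of red cell markers. Before adjustment 11 of the 15 were lower and 1 was higher at 0.05, beside 13.0% and 13.3% of all named genes. A limma adjusted p under 0.1 was found in 10, beside 6.5% of all named genes. Glrx5, which passes on iron-sulphur clusters, read 15.82, 15.41 and 15.55 in the vehicle arrays and 14.57, 14.61 and 14.59 in the MOTS-c arrays, a difference of -1.0 ± 0.15 (SE) with an adjusted p of 0.0820. Isca2, a late factor of iron-sulphur assembly, differed by -0.86 ± 0.15 (SE). Cpox, which makes protoporphyrinogen, differed by -1.01 ± 0.18 (SE).

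**Figure D3:**
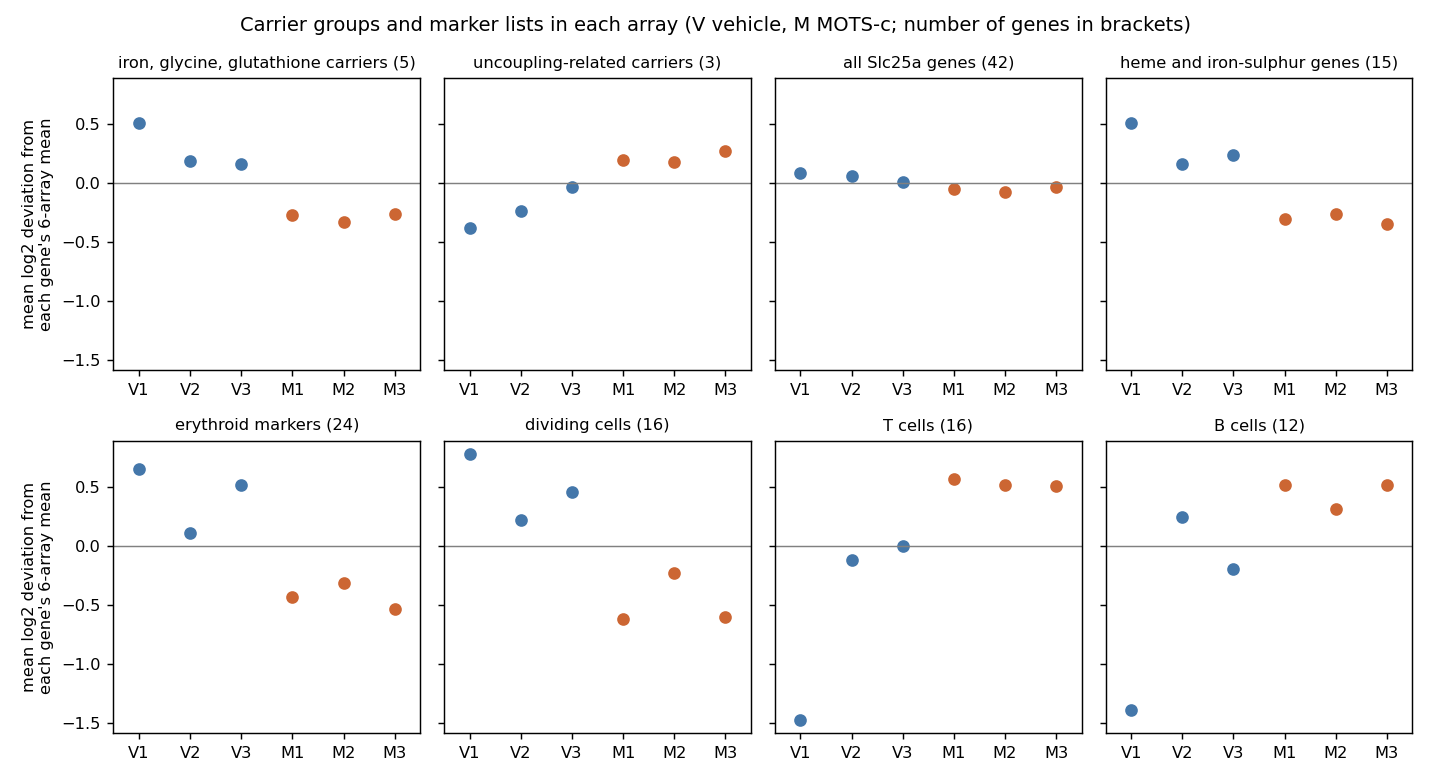
Mean log2 deviation of the genes of a group from their own 6-array means, in each vehicle array (V1 to V3) and each MOTS-c array (M1 to M3), for carrier groups in the upper row with the heme and iron-sulphur genes, and marker lists in the lower row. The iron, glycine and glutathione carriers run from 0.16 to 0.51 in vehicle and from -0.33 to -0.26 in MOTS-c arrays, and vehicle 1 lies at -1.47 in the T cell markers.

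The carriers of di- and tricarboxylates and keto acids were split. Of the 4 genes, 3 had lower means and 1 a higher one, and the median was -0.14. Slc25a21, which exchanges 2-oxoadipate, a product of lysine and tryptophan breakdown, for 2-oxoglutarate, had the smallest p of all 42 members. Its brightest probe (chr12:57813812-57813871) read 11.76, 10.86 and 11.09 in the vehicle arrays and 9.52, 10.04 and 9.56 in the MOTS-c arrays. All 3 MOTS-c values lay below all 3 vehicle values. The difference was -1.53 ± 0.27 (SE), 2.89-fold lower, with an adjusted p of 0.0820.

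Slc25a21 kept that difference in the other comparisons, at -1.27 without vehicle 1 and -1.38 within slide 2. Its second probe with a RefSeq accession differed by -1.43. The third, without one, differed by -3.10, but its vehicle arrays were far apart at 9.45, 7.66 and 6.20, while the MOTS-c arrays read 4.93, 4.50 and 4.56.

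The other 3 carriers of this group are the citrate carrier Slc25a1, the dicarboxylate carrier Slc25a10 and the oxoglutarate/malate carrier Slc25a11 of the malate-aspartate shuttle. Slc25a11 read 12.61, 13.54 and 13.49 in the vehicle arrays and 13.99, 13.73 and 13.64 in the MOTS-c arrays. The groups did not overlap, but vehicle 1 was low. The difference was 0.58 ± 0.27 (SE) with an adjusted p of 0.219, and 0.28 without vehicle 1 and 0.30 within slide 2. Slc25a10 differed by -0.053 ± 0.33 (SE), well inside its spread, and by -0.40 without vehicle 1 and -0.25 within slide 2. Slc25a1 differed by -0.24 ± 0.16 (SE) by its brightest probe, -0.039 within slide 2, and by 0.093 by another.

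Among the 6 carriers of phosphate, of ADP and ATP and of ATP-Mg, 3 were lower and 3 higher, with a median of -0.044. They include carriers that every respiring cell uses to export ATP and bring back phosphate. Slc25a4 (ANT1) and Slc25a5 (ANT2) both exchange ADP and ATP, and their values went in different directions. Slc25a4 read 13.65, 14.15 and 13.81 in the vehicle arrays and 14.59, 14.38 and 14.41 in the MOTS-c arrays. These did not overlap, and the difference was 0.59 ± 0.17 (SE), 1.51-fold higher, with an adjusted p of 0.111.

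The difference of Slc25a4 was 0.48 without vehicle 1, 0.65 within slide 2 and 0.37 with the 75th percentile scaling, and its second probe differed by 0.34. Slc25a5 read 13.87, 13.87 and 13.56 against 13.63, 13.71 and 13.60. The groups overlapped, and the difference of -0.12 ± 0.14 (SE) was 0.088 within slide 2 and -0.35 with the 75th percentile scaling. The difference between the paralogs was not tested. The phosphate carrier Slc25a3 differed by 0.031 ± 0.16 (SE), and by -0.18 with the 75th percentile scaling, so its direction was not settled.

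The calcium-regulated ATP-Mg/phosphate carriers were also not uniform. Slc25a24 read 10.79, 10.50 and 10.98 in the vehicle arrays and 10.33, 10.45 and 10.21 in the MOTS-c arrays, a difference of -0.43 ± 0.17 (SE) with an adjusted p of 0.168 that was -0.65 within slide 2. Slc25a23, by a probe without a RefSeq accession, read 6.70, 7.65 and 7.53 against 7.67, 8.26 and 7.98. The difference was 0.68 ± 0.28 (SE) with an adjusted p of 0.190. The groups did not overlap in either gene, although vehicle 2 and MOTS-c 1 nearly met in Slc25a23, which differed by 0.38 without vehicle 1 and 0.44 within slide 2. Slc25a25 differed by -0.21 with overlapping groups, and by 0.054 within slide 2.

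The 9 carriers of cofactors and nucleotides had 6 lower and 3 higher means and a median of -0.032. Slc25a51, which brings NAD into mitochondria, had the lowest difference of them. Its brightest probe (chr4:45408957-45409016) read 16.47, 15.86 and 16.20 in the vehicle arrays and 15.52, 15.31 and 15.30 in the MOTS-c arrays. Each MOTS-c array lay below each vehicle array. The difference was -0.80 ± 0.19 (SE), 1.74-fold lower, with an adjusted p of 0.0875, and -0.65 without vehicle 1, -0.82 within slide 2 and -1.02 with the 75th percentile scaling. A second probe differed by -0.86.

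Slc25a16, a carrier linked to coenzyme A, read 8.54, 8.49 and 7.93 in the vehicle arrays and 7.79, 7.43 and 7.73 in the MOTS-c arrays. There was no overlap, although vehicle 3, on the slide of the MOTS-c arrays, was the lowest of the vehicle arrays. The difference was -0.67 ± 0.21 (SE) with an adjusted p of 0.123, and -0.27 within slide 2. A second probe, without a RefSeq accession, differed by -0.081.

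In 6 other cofactor carriers the groups overlapped. The pyrimidine nucleotide carriers Slc25a33 and Slc25a36 differed by -0.27 and 0.12, and by -0.026 and 0.29 within slide 2. Slc25a32, a carrier of folate and FAD, differed by -0.0078, and by 0.011 with the 75th percentile scaling and 0.12 within slide 2. The coenzyme A carrier Slc25a42, the peroxisomal carrier Slc25a17 and the S-adenosylmethionine carrier Slc25a26 differed by -0.27, -0.032 and 0.086, and by -0.55, -0.026 and 0.21 within slide 2. With normexp and quantile normalisation Slc25a17 was at 0.013.

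The 9 carriers of amino acids and carnitine had 6 lower and 3 higher means, with a median of -0.31. Slc25a18 and Slc25a22 are paralogs that both carry glutamate, and they differed in opposite directions. Slc25a22 read 7.11, 7.42 and 7.49 in the vehicle arrays and 7.78, 7.99 and 8.04 in the MOTS-c arrays, without overlap. The difference was 0.60 ± 0.16 (SE), 1.51-fold higher, with an adjusted p of 0.101, and it was 0.48 without vehicle 1 and 0.44 within slide 2.

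Slc25a18 had the lowest difference of the family and the least even vehicle arrays. It read 8.35, 7.17 and 5.14 in vehicle 1, 2 and 3, and 4.96, 4.81 and 4.61 in MOTS-c 1, 2 and 3. The groups did not overlap, but vehicle 3 lay near the MOTS-c arrays. The probe was among the dimmest 25% of probes. A second Slc25a18 probe, outside the table, was well above background on only 1 vehicle and 1 MOTS-c array. The difference was -2.10 ± 0.72 (SE), with an adjusted p of 0.141. It was -1.37 without vehicle 1 and -0.35 within slide 2, and its 95% interval over all arrays ran from -3.78 to -0.41.

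Slc25a44, a carrier of branched-chain amino acids, read 8.88, 8.07 and 8.37 in the vehicle arrays and 7.71, 7.81 and 7.51 in the MOTS-c arrays. No MOTS-c value reached a vehicle value. The difference was -0.76 ± 0.22 (SE), 1.70-fold lower, with an adjusted p of 0.114, and -0.70 within slide 2. A second probe for another RefSeq transcript differed by -0.26.

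Slc25a45, grouped here with the amino acid and carnitine carriers, had the highest difference of the 42 genes. It read 10.12, 10.82 and 11.15 in the vehicle arrays and 11.53, 11.61 and 11.59 in the MOTS-c arrays. The MOTS-c arrays lay close together and above every vehicle array. The difference was 0.88 ± 0.26 (SE), 1.84-fold higher, with an adjusted p of 0.112, and its second probe differed by 0.86. It was 0.60 without vehicle 1 and 0.43 within slide 2.

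The aspartate/glutamate carriers of the malate-aspartate shuttle, Slc25a12 and Slc25a13, differed by -0.31 ± 0.15 (SE) and -0.32 ± 0.21 (SE). The groups of Slc25a12 did not overlap, at 11.70, 11.30 and 11.42 against 11.08, 11.25 and 11.17, and those of Slc25a13 did. Within slide 2 Slc25a13 differed by 0.061. Slc25a20, the carnitine/acylcarnitine carrier of fatty acid oxidation, differed by -0.0016 ± 0.25 (SE), and by 0.030 with the 75th percentile scaling, -0.29 without vehicle 1 and -0.33 within slide 2. The ornithine carrier Slc25a2 and the basic amino acid carrier Slc25a29 differed by -0.60 and 0.20 with overlapping groups, and by -0.12 and 0.42 within slide 2.

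All 3 carriers related to the uncoupling proteins had higher means with MOTS-c, and in all 3 the groups did not overlap by the brightest probe. Every MOTS-c value lay above every vehicle value for 19.4% of all named genes. The median difference of the 3 was 0.47. An unadjusted p under 0.05 was found in 2 of them, where 13.3% of all named genes had it with a higher mean. Slc25a27 (UCP4) read 6.99, 7.20 and 7.56 in the vehicle arrays and 7.94, 7.71 and 8.10 in the MOTS-c arrays, a difference of 0.66 ± 0.19 (SE), 1.58-fold higher, with an adjusted p of 0.112. Slc25a14 (UCP5) read 10.15, 10.19 and 10.57 against 10.72, 10.88 and 10.71, a difference of 0.47 ± 0.16 (SE) with an adjusted p of 0.141. Vehicle 3 lay closest to the MOTS-c arrays in both genes, and within slide 2 the differences were 0.35 and 0.20. Slc25a30 differed by 0.17 ± 0.13 (SE) by its brightest probe, which has no RefSeq accession. Its probes with an accession differed by 0.096 and 0.18, with overlapping groups.

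The classical uncoupling proteins are relatives of the family under other names and did not share that direction. Ucp2, the uncoupling protein of immune cells, read 13.14, 13.32 and 13.35 in the vehicle arrays and 13.03, 12.67 and 12.89 in the MOTS-c arrays, a difference of -0.41 ± 0.15 (SE) with an adjusted p of 0.155. Ucp3, its neighbour in the genome, differed by -0.31 ± 0.15 (SE). Its probe read 13.50, 13.64 and 13.64 against 13.47, 13.09 and 13.31, above Ucp2 on every array. Whether that probe reads only Ucp3 was not tested. The outer membrane relative Mtch1 differed by 0.22 ± 0.13 (SE). Of 8 listed symbols, some of them older names of SLC25 genes, 4 were in the table, 2 lower and 2 higher. Ucp1 was not in the table.

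The 6 carriers of unsettled substrate or other role had 1 lower and 5 higher means and a median of 0.33. Slc25a53 read 8.14, 8.65 and 8.72 in the vehicle arrays and 9.43, 8.94 and 9.55 in the MOTS-c arrays. There was no overlap between the groups. The difference was 0.80 ± 0.23 (SE), 1.74-fold higher, with an adjusted p of 0.112, and 0.59 within slide 2. A second probe, without a RefSeq accession, differed by -0.40. Slc25a34 differed by 0.38 over all arrays and by -0.75 within slide 2, where vehicle 3 read 8.12, while vehicle 1 and 2 read 6.37 and 6.48. Slc25a35, Slc25a43, Slc25a46 and Slc25a47 differed by 0.44, 0.27, 0.12 and -0.48, all with overlapping groups, and by 0.53, 0.12, 0.10 and 0.26 within slide 2.

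Markers of T cells and B cells were higher with MOTS-c beside the higher carriers. All 16 T cell markers had higher means, with a median of 1.06, and all 12 B cell markers, with a median of 0.85. Their summed linear signals ran from 36544 to 102899 and from 45109 to 136439 in the vehicle arrays, and from 146840 to 159201 and from 165728 to 181604 in the MOTS-c arrays. Vehicle 1 had the lowest mean deviation of both lists. It also gave the lowest value of Slc25a45, Slc25a11, Slc25a4, Slc25a22, Slc25a23, Slc25a14, Slc25a27, Slc25a53, Slc25a30, Slc25a34 and Slc25a35. In the higher carriers Slc25a3, Slc25a26, Slc25a29, Slc25a36, Slc25a43 and Slc25a46 another array was lowest. Vehicle 1 was lowest in Slc25a10 and Slc25a20 too, whose means were not higher with MOTS-c. The part of these lists in the higher carrier values was not tested.

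Markers of other cell types were read too. All 12 markers of neutrophils and their precursors had higher means, with a median of 0.86, but none had groups apart. Among all named genes, 19.4% had every MOTS-c value above every vehicle value. The 10 red pulp macrophage markers in the table had a median of 0.11, which was -0.097 with the 75th percentile scaling. The 13 pancreatic acinar markers were all lower, with a median of -3.11 and summed signals of 7742 to 231026 in vehicle and 5298 to 13877 in MOTS-c arrays, and 3 defining ones, Pnlip, Pnliprp1 and Rnase1, were not in the table. Of 7 fat markers 2 were in the table.

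**Figure D4:**
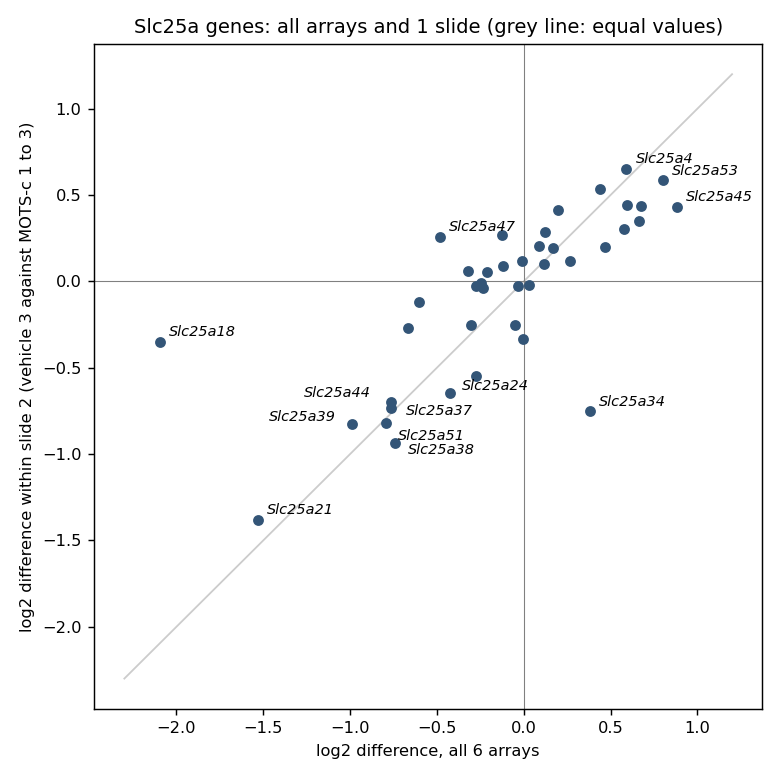
Log2 difference of the Slc25a genes over all 6 arrays (x axis) and within slide 2, where only vehicle 3 stands for vehicle (y axis); the grey line marks equal values. Slc25a21, Slc25a37, Slc25a38, Slc25a39, Slc25a44 and Slc25a51 lie near the line, Slc25a18 is at -2.10 and -0.35, and Slc25a34 is at 0.38 and -0.75.

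Within slide 2, 8 of the 42 members had a difference of the other sign than over all arrays: Slc25a3, Slc25a5, Slc25a13, Slc25a25, Slc25a28, Slc25a32, Slc25a34 and Slc25a47. The family's median was 0.058 there, and that of all probes 0.062. Before adjustment at 0.05, 8 members were lower within the slide, where 11.2% of all named genes were, and 3 higher, where 7.87% were, against 9 and 8 members over all arrays. Among the lower carriers, Slc25a21, Slc25a37, Slc25a38, Slc25a39 and Slc25a51 kept from 0.84 to 1.27 times their difference, Slc25a16 kept 0.41 times and Slc25a18 0.17 times. Among the higher ones, Slc25a4 kept 1.1 times its difference, Slc25a22 0.75 times and Slc25a45 0.49 times.

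For 23 member genes the table held several probes, and in 4 of them (Slc25a1, Slc25a12, Slc25a26 and Slc25a53) probes went in opposite directions. Of the 78 probes, 64 carry a RefSeq accession in the array's annotation and had a median difference of -0.043, and 14 carry none and had a median of 0.15. Slc25a26 varied little, with 0.086, 0.21 and -0.12 in its 3 probes. In Slc25a12 the 3 probes with an accession differed by -0.31, -0.41 and -0.089, and the pair without one by 0.34 and 0.14.

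Probes without an accession also gave values well away from the brightest probe of Slc25a35 and Slc25a42, which are named here after their values were seen. In Slc25a35 such a probe read 5.78, 6.13 and 6.99 in the vehicle arrays and 7.72, 7.69 and 8.05 in the MOTS-c arrays, a difference of 1.52 ± 0.31 (SE) with an adjusted p of 0.0820. The brightest probe of Slc25a35, also without an accession, gave 0.44, and the probe with one gave 0.41. In Slc25a42 a probe without an accession read 6.42, 5.88 and 5.62 against 4.74, 4.82 and 4.97, a difference of -1.13 ± 0.22 (SE) with an adjusted p of 0.0820, where the brightest probe gave -0.27. The groups did not overlap in the probes at 1.52 and -1.13. Which exon, intron or untranslated region a probe lies in was not determined, since no genome of the array's build (mm9) was used. The first 30 of 60 bases are printed for probe pairs that disagree, the brightest first, so that a reader can place them.
Slc25a53 chrX:133515688-133515747, 0.80: tgtttgttttcttttaatagtggatttagt
Slc25a53 chrX:133566715-133566774, -0.40: ggtgtgggacgtctcgtgagccgcaaatgt
Slc25a12 chr2:71112979-71113038, -0.31: cgtgttgaaatgttttctgagccttggcat
Slc25a12 chr2:71165603-71165662, 0.34: agaatagtggctactataaattaagtctcc
Slc25a35 chr11:68785020-68785079, 0.44: tatcactgtgttatctctgatggtatggaa
Slc25a35 chr11:68787730-68787789, 1.52: aagattcagacctcaagccttgatacctaa
Slc25a42 chr8:72708298-72708357, -0.27: ggtcactgtccagtctggagttctattttg
Slc25a42 chr8:72711938-72711997, -1.13: aacacaaactgacctcaagtttgccttgta

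**Figure D5:**
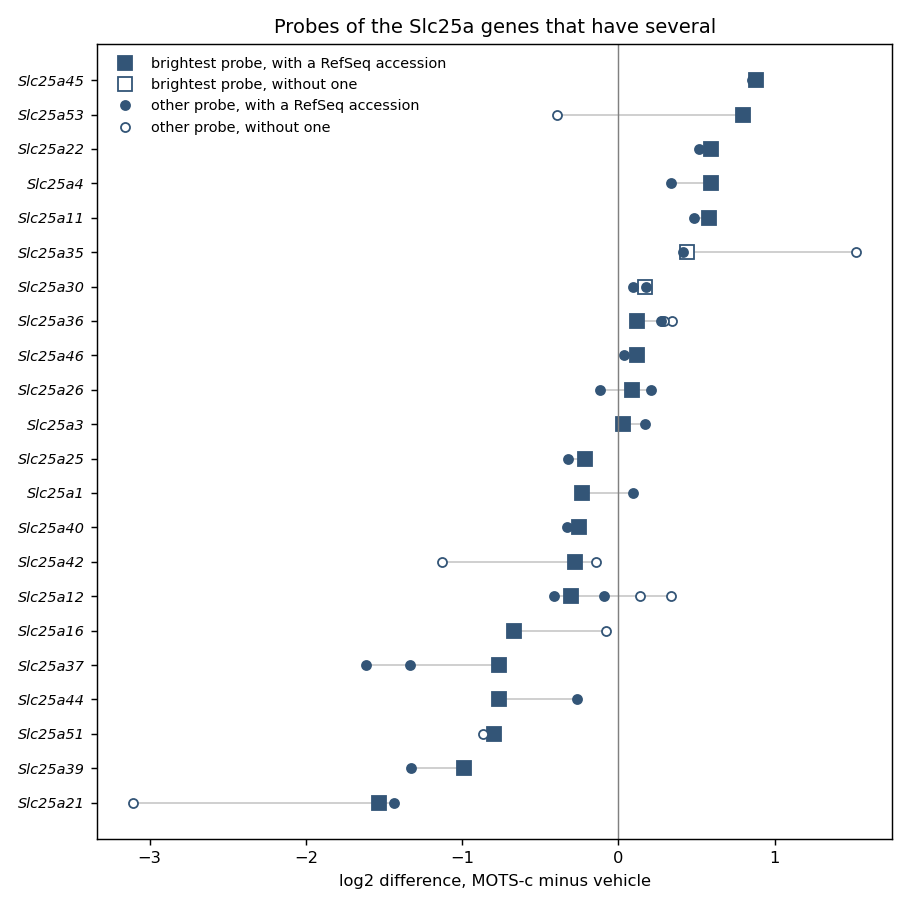
Log2 difference of the probes of Slc25a genes with several probes in the table; squares are the brightest probe, circles the others, and open symbols have no RefSeq accession. The probes of Slc25a45 and Slc25a39 lie on 1 side of 0, while the open circle of Slc25a53 lies at -0.40 against 0.80 for its square.

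The machinery that imports carriers into the inner membrane did not share a direction. Of 19 listed symbols, which include alternative names of the same genes, 16 were in the table, 7 lower and 9 higher. Their median was 0.053, which was -0.097 with the 75th percentile scaling. Tomm20, a receptor of the outer membrane, was the only one of them with an unadjusted p under 0.05. It differed by -0.45 ± 0.18 (SE) with an adjusted p of 0.170. The small chaperones Timm8a1 and Timm10b of the intermembrane space differed by -0.50 ± 0.23 (SE) and 0.28 ± 0.15 (SE).

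Transporters and channels of the mitochondrial membranes outside the SLC25 family had mostly lower means. Of 17 listed symbols, which include alternative names of the same genes, 15 were in the table, 12 lower and 3 higher. Their median was -0.12, and 3 were lower at an unadjusted p under 0.05, beside 13.0% of all named genes. Abcb10, an inner membrane transporter that stabilises mitoferrin-1 in red cell precursors, read 14.69, 14.04 and 14.68 in the vehicle arrays and 13.38, 13.72 and 13.52 in the MOTS-c arrays. Vehicle and MOTS-c values were apart, and the difference was -0.93 ± 0.21 (SE) with an adjusted p of 0.0860. The pyruvate carrier subunit Mpc2 differed by -0.40 ± 0.13 (SE).

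Promoters of members were read from RefSeq (GRCm38.p6) for 32 of the 42 genes, which have 41 start sites, over the 250 bases before each. Slc25a37 and Slc25a51 were among the 10 genes not matched. Letters were searched on both strands: GATAA or GATAG after an A or a T for GATA factors, CCNCNCCC for Krüppel-like factors, CACGTG as an E-box and GCGCATGC as the core of the NRF1 site. None of these letter sets contains another. GATA letters were in 6 of 41 member promoters (14.6%) and in 26.5% of all 32851 promoters. Krüppel letters were in 25 (61.0%) and in 45.9% of all. The E-box was in 6 (14.6%) and in 6.02% of all, and the NRF1 core in 0 and in 2.26% of all.

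The promoters of 3 lower carriers, Slc25a38, Slc25a39 and Slc25a21, and of the higher carrier Slc25a45 are printed to show the Krüppel letters, in capitals, each read in the direction of its gene. Those of Slc25a38 (chr9:120110132-120110381, plus strand) overlap 11 and 9 bases before the start. Slc25a39 (chr11:102407518-102407767, minus strand) has them at 231, 99, 31 and 12 bases before it. Slc25a21 (chr12:57160644-57160893, minus strand), printed for 1 of its 2 start sites, has them at 65, and the other start site has none. Slc25a45 (chr19:5877572-5877821, plus strand) has none in this window. The printed ones were picked and stand for no contrast by direction: the lower carriers Slc25a16 and Slc25a18 had none, and the higher carriers Slc25a11, Slc25a22, Slc25a23 and Slc25a53 had them before at least 1 start site. A match is a description of letters and not a measured binding site.
Slc25a38: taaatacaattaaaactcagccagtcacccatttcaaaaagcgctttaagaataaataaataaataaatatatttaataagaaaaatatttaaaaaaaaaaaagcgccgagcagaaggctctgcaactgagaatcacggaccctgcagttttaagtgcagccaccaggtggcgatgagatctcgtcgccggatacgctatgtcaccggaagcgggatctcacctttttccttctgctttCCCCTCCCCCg
Slc25a39: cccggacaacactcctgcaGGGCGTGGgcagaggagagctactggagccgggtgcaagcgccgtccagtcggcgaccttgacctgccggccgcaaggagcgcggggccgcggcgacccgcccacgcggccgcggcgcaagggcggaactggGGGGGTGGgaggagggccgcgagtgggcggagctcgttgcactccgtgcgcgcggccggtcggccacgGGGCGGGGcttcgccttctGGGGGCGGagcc
Slc25a21: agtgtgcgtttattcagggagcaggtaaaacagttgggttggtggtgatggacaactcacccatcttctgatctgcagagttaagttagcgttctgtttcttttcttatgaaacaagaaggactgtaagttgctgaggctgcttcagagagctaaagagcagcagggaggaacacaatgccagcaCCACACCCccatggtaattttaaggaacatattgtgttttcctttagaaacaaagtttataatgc
Slc25a45: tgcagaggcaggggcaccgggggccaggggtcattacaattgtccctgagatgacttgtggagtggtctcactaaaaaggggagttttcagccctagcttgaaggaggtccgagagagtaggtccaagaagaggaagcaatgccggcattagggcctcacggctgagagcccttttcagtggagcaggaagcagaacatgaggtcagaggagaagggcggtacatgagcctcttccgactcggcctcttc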

How the data were processed

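Spleen RNA of 3 vehicle and 3 MOTS-c samples was hybridised to 1-colour Agilent arrays and, per the submitters' processing notes and the file headers, extracted with Agilent Feature Extraction 11.0.1.1. The scanner files hold a background-subtracted signal intensity per spot, per the file headers. The deposited table of the authors gives the same signals as intensity and as log2 values that are quantile normalised between arrays, a signed fold as a score, and a p-value with its adjustment. Differences were fitted on the deposited log2 values with limma 3.58.1 in R 4.3.3 (lmFit and eBayes, two-sided, Benjamini-Hochberg over 31692 probes, threshold 0.05), tested on simulated data. The probe with the highest mean over 6 arrays stood for a gene. An exact permutation test of 3 arrays a group has a smallest p of 0.1 and was not used.

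Named were the 8 members with the smallest p in each direction, a fixed panel of 20, members whose probes disagree and the 3 genes with the smallest p of each of 4 related lists. The members, lists and rules were chosen with earlier results of these data known. 1 such member and 1 gene of a related list are not reported here, and that member is not drawn in the figures; counts and medians include both. Alternatives were the 75th percentile of the scanner intensity as scale, also over all detected probes, normexp (offset 50, on median signals since the mean signal is not in the files used), the dimmest 25% of probes left out, the mean of a gene's probes, the slide as a block or within slide 2, a replicate block, an intensity trend in the prior, the authors' deposited p-value, and leaving out each array.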

Additional observations from a re-analysis of the deposited data

How the results depend on the processing

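Of the comparisons above, the count of probes past an adjusted p of 0.05 was 0 and became 2 with the 75th percentile over all detected probes, 1 with the slide as a block and 721 with an intensity trend in the prior, and 0 to 772 when single arrays were left out, the highest without vehicle 2 and 39 without vehicle 3. The count of member genes became 4 with the trend and 0 to 3 when single arrays were left out. The median of the members, -0.043, became -0.14 with either 75th percentile scaling and 0.058 with the slide as a block or within slide 2, and ran from -0.078 to -0.035 when single arrays were left out. The cause was not tested.

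Among named members, some turned sign. With either 75th percentile scaling Slc25a3 was at -0.18, Slc25a20 at 0.030 and Slc25a32 at 0.011. With the slide as a block, and equally within slide 2, Slc25a3 was at -0.021, Slc25a5 at 0.088, Slc25a13 at 0.061, Slc25a28 at 0.27 and Slc25a32 at 0.12. When single arrays were left out, Slc25a10 ran from -0.40 to 0.19, Slc25a20 from -0.29 to 0.16, Slc25a28 from -0.32 to 0.013, Slc25a3 from -0.051 to 0.15 and Slc25a32 from -0.070 to 0.075.

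Same-numbered arrays had correlations of their deviations of -0.18, -0.0024 and -0.087, and differently numbered ones ran from -0.13 to 0.19. These correlations cannot show whether the samples were paired by design. Titles and descriptions disagree on the numbers of vehicle 3 and MOTS-c 3, and the titles were used. With a replicate block 0 probes passed, and the median of the members was -0.043. Before adjustment 9 members had p under 0.05 with a lower mean and 7 with a higher one, beside 3670 and 3024 of all 31692 probes. The smallest adjusted p of a member in that limma fit was 0.134.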

Other observations

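Of the 19 family probes of the array design outside the deposited table, 7 were well above background on no array and 4 were well above background on every array of at least 1 group. Their differences are given with the 75th percentile scaling. A probe of Slc25a27 was well above background on 1 vehicle and 3 MOTS-c arrays and differed by 1.5, with vehicle 3 at -4.63 and vehicle 1 and 2 at -6.94 and -6.51 relative to the percentile. Probes of Slc25a22 and Slc25a23 were each well above background on 1 vehicle and 3 MOTS-c arrays and differed by 0.46 and 0.33, and a probe of Slc25a34 on 3 and 2 arrays by 0.018. The probes of Slc25a27, Slc25a22 and Slc25a23 passed through the MOTS-c group alone, so the filter itself favoured higher differences in them. The probes that did not pass went both ways, from -1.2 (Slc25a18) to 1.4 (Slc25a43).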
